A study of Mus musculus with 9 samples.

Results

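Matrix metalloproteinases, their tissue inhibitors and the related protease Adamts1 were followed in mouse choroidal neovascularization, in which a laser burn breaks the Bruch membrane and vessels grow in from the choroid. The members were 10 genes picked by symbol: the metalloproteinases Mmp2, Mmp3, Mmp9, Mmp12, Mmp14 and Mmp19, the inhibitors Timp1, Timp2 and Timp3, and Adamts1. All 10 were among the 24421 genes of the count tables, and all 10 passed the filter on low counts with which 14054 genes were tested. The libraries came from the pigment epithelium and choroid around the lesions, cut out by laser capture, and reads were taken from the 3′ ends of transcripts. The mice were males of 8 weeks; each eye had 4 burns, and 5 µg of a reagent at 5 mg/ml was injected into the vitreous. The 3 groups of 3 libraries differed in that reagent. ABTAA is an antibody against angiopoietin 2 that also switches on Tie2, the receptor of endothelial cells for angiopoietins, VEGF Trap is a soluble decoy receptor for VEGF, and Fc is the antibody fragment that served as control. Every group carried the laser injury, so none of the comparisons shows what the injury did. The titles call the control libraries Fc, whereas their tables head the columns with a label for knockout controls.

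Metalloproteinases are zinc enzymes that cut collagens, laminins, elastin and other matrix proteins and also release growth factors held in the matrix. Most are secreted as inactive proenzymes, and the tissue inhibitors of metalloproteinases (TIMPs) bind the active enzymes and block them. In the eye, Timp3 is deposited in the Bruch membrane, and metalloproteinase activity accompanies the breach of that membrane by new vessels.

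Total counts were 6335805 to 10060014 in ABTAA libraries, 7346988 to 14439835 in VEGF Trap libraries and 10669772 to 12326569 in Fc libraries, and the 10 members held 0.397% to 0.532% of them. Values are in CPM, which here are counts per library size after scaling by trimmed mean of M values (TMM). The limit that 3 counts set, for counting error only, lay between 0.208 and 0.474 CPM, and each member stood far above it in each library. Of the marker genes, 6 of 7 for pigment epithelium and 8 of 8 for endothelium had counts in all 9 libraries. The same held for 14167 of all 24421 genes, for 8 of 8 skeletal muscle genes and for 6 of 6 photoreceptor genes. Such counts therefore do not by themselves identify the tissue. The labels do not say which animal a library came from; the p-values therefore reflect the spread among these samples alone, and that spread may be technical. Since the libraries are bulk tissue, fewer cells of a type and less RNA per cell cannot be told apart in any value below.

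The start regions of 7 of the 10 members had an entry in the RefSeq promoter table, which uses build GRCm38.p6. Those of Mmp3, Timp1 and Adamts1 are shown because the Mmp3 window holds an AP-1 match, the element for which inducible metalloproteinase genes are known, and because Timp1 and Adamts1 had lower values than Fc in both treated groups. Each sequence is the 250 bases before the start site, read 5′ to 3′ on the strand of the gene, and the capitals mark matches to 3 motifs searched on both strands, the AP-1 site TGANTCA, the GC box GGGCGG and the TATA box TATAAA. Mmp3 is shown from chr9:7445572-7445821 on the plus strand, Timp1 from chrX:20869916-20870165 on the plus strand and Adamts1 from chr16:85803114-85803363 on the minus strand.
Mmp3: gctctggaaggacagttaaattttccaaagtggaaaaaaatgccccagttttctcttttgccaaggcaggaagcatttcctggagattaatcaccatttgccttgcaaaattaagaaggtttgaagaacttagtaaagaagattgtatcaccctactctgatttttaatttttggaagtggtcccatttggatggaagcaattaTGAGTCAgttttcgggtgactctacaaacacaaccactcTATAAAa
Timp1: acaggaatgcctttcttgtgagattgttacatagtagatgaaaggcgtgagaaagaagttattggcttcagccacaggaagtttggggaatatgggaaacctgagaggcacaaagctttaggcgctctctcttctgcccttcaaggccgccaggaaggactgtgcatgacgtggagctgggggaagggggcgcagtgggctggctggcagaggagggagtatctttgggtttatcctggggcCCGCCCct
Adamts1: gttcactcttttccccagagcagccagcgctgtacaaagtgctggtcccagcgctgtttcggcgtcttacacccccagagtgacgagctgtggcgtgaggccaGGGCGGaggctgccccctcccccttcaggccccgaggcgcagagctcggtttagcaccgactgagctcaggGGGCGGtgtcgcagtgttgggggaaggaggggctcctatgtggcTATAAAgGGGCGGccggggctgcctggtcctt
The Mmp3 window held an AP-1 match 46 to 40 bases before the start and a TATA match 7 to 2 bases before it. One of the 2 Mmp12 start sites also had an AP-1 match, 44 to 38 bases upstream, and 6.7% of 32851 promoters of the same length held one. Timp1 had 1 GC box, on the opposite strand and 8 to 3 bases before the start, so that it reads CCGCCC in the sequence above. Adamts1 had 3 GC boxes, at 147 to 142, 76 to 71 and 25 to 20 bases before the start, and a TATA match at 32 to 27. Mmp14 had 2 GC boxes, Timp2 and Timp3 had 1 each, and 32.7% of all promoters held at least 1, as 12.4% held a TATA match. The share of G and C was 68.0% in Timp2, 65.6% in Timp3 and 65.6% in Adamts1, above the median of 52.4% over all promoters. It was 54.4% in Timp1 and 55.2% in Mmp14, near that median, and 37.6% in Mmp3, below it. A match of letters is a description of the window and says nothing about which factor is bound.

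The comparisons with Fc ask how blocking angiopoietin 2 with activation of Tie2, or capture of VEGF, changed expression in the lesion, and both use the same 3 Fc libraries. Libraries of the treated groups lay apart from Fc for the 3 inhibitors and Adamts1, and overlapped with Fc for the 6 metalloproteinases. Timp2 rose in VEGF Trap libraries, and its value in ABTAA libraries and the values of Timp3 were also higher than in Fc without passing the test. Timp1 and Adamts1 had lower values than Fc in both treated groups, again without passing. Of the 10 members, 0 passed in ABTAA against Fc (edgeR quasi-likelihood test, Benjamini-Hochberg adjusted p under 0.05 over all tested genes). There 1.40% of all tested genes passed, 197 of 14054, with 0.847% higher and 0.555% lower. DESeq2 called 1 member there, where it called 729 genes in all, and limma-voom called 0 members, where it called 214 genes. In VEGF Trap against Fc 1 member passed, where 1.02% of all tested genes did, 144 of 14054; it was on the higher side, where 0.512% of all genes stood, as 0.512% did on the lower side. At an unadjusted p under 0.05 the same test counted 4 of 10 members in each comparison, against 16.9% of all genes for ABTAA and 15.4% for VEGF Trap. The median log2 fold change of the members was -0.09 in each comparison, and that of all tested genes was -0.003 for ABTAA and 0.001 for VEGF Trap.

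**Figure D1:**
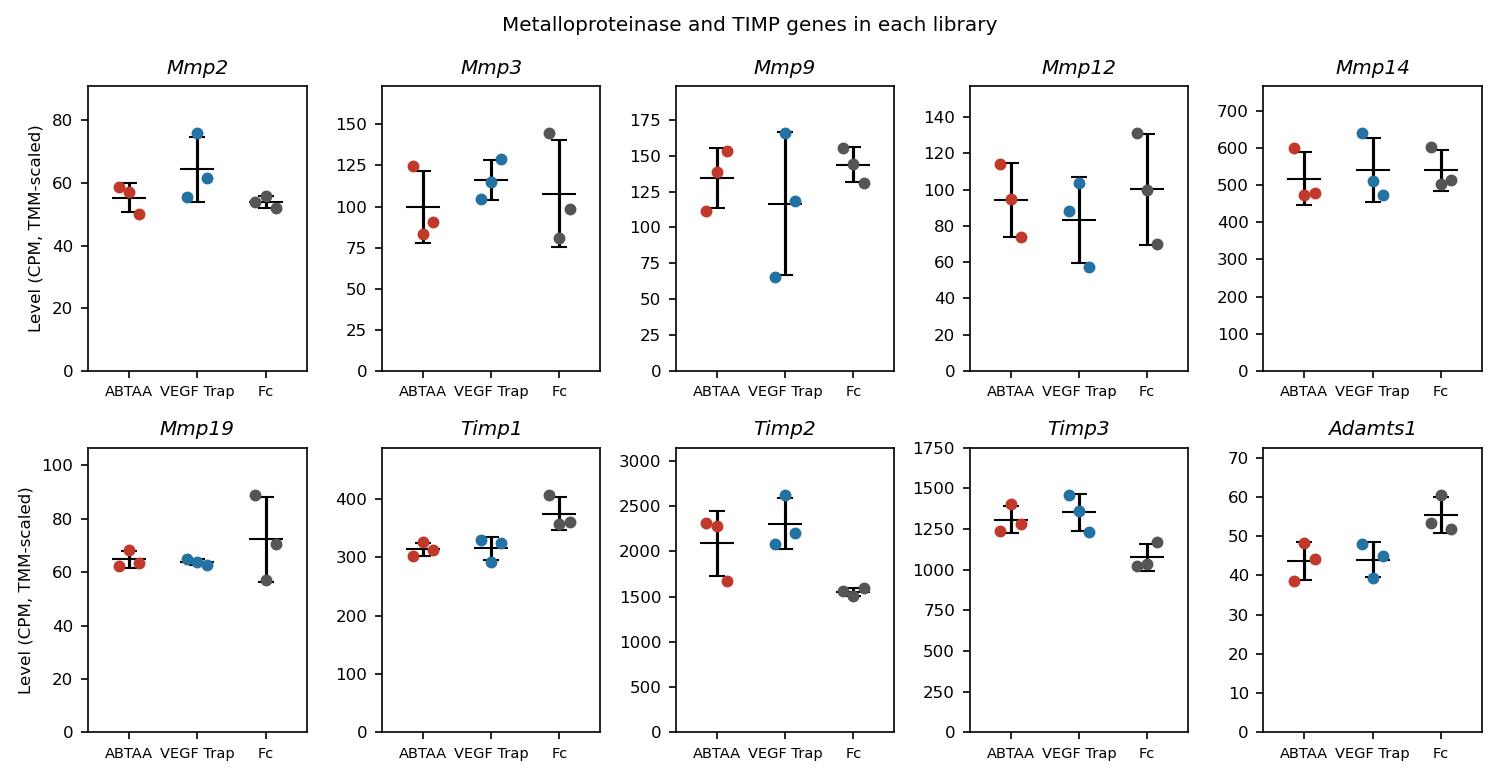
Normalised CPM of each of the 10 members in the 9 libraries, 1 panel per gene with its own vertical axis starting at 0; points are libraries, from left to right the ABTAA, VEGF Trap and Fc groups, and bars give the mean and SD of 3 libraries. In the Timp2 and Timp3 panels all 6 treated libraries lie above the Fc libraries, in the Timp1 and Adamts1 panels they lie below them, and in the 6 metalloproteinase panels the groups overlap.

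Mmp2 is gelatinase A, which digests denatured collagen and the collagen IV of basement membranes, and is activated at the cell surface by Mmp14 together with Timp2. The gene lies at chr8:92827291-92853420 (GRCm38, plus strand). It had 58.8, 56.9 and 50.1 CPM in ABTAA libraries 1, 2 and 3, 55.6, 75.7 and 61.7 CPM in VEGF Trap libraries, and 54.0, 55.7 and 52.0 CPM in Fc libraries. VEGF Trap 2 was the highest of the 9, and both treated groups overlapped Fc. The log2 fold change was 0.04 ± 0.14 in ABTAA (SE, adjusted p = 0.928, edgeR) and 0.26 ± 0.14 in VEGF Trap (adjusted p = 0.387). The direction of the ABTAA value turned with library totals as the only scaling (-0.01) and with a correction for GC content (-0.05). The VEGF Trap value was 0.12 without VEGF Trap 2 (adjusted p = 0.757, edgeR).

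Mmp9 is gelatinase B, a second enzyme for denatured collagen and basement membrane, made largely by neutrophils and macrophages (chr2:164940780-164955850, plus strand). It had 111, 139 and 153 CPM in ABTAA libraries, 65.6, 165 and 119 CPM in VEGF Trap libraries, and 155, 144 and 131 CPM in Fc libraries. The VEGF Trap libraries spread most, and held both the lowest and the highest of the 9 values. Group means were 134 ± 21.2 CPM in ABTAA and 117 ± 50.0 CPM in VEGF Trap, against 144 ± 12.2 CPM in Fc (SD, n = 3 each). The log2 fold change was -0.10 ± 0.23 in ABTAA (adjusted p = 0.884, edgeR), and -0.30 ± 0.23 in VEGF Trap (adjusted p = 0.584), with a 95% interval of -0.79 to 0.19. The VEGF Trap value was near 0 without VEGF Trap 1 (-0.003), and -0.65 without VEGF Trap 2 (adjusted p = 0.163, edgeR).

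Mmp3 is stromelysin 1, which cuts a broad range of matrix proteins and activates other proenzymes, and Mmp12 is the macrophage elastase. Both genes lie on chromosome 9, Mmp3 at chr9:7445822-7455975 and Mmp12 at chr9:7344381-7369499, on the plus strand. Mmp3 had 125, 83.5 and 90.9 CPM in ABTAA libraries, 105, 115 and 129 CPM in VEGF Trap libraries, and 144, 81.0 and 98.3 CPM in Fc libraries. Fc held both the highest and the lowest Mmp3 value. Mmp12 had 114, 95.1 and 73.7 CPM in ABTAA libraries, 88.4, 104 and 57.4 CPM in VEGF Trap libraries, and 131, 99.8 and 69.8 CPM in Fc libraries. The Mmp12 groups largely overlapped, with replicate 3 the lowest in each. For Mmp3 the log2 fold change was -0.11 ± 0.19 in ABTAA (adjusted p = 0.824, edgeR) and 0.11 ± 0.19 in VEGF Trap (adjusted p = 0.849). For Mmp12 it was -0.08 ± 0.23 in ABTAA (adjusted p = 0.904, edgeR) and -0.26 ± 0.23 in VEGF Trap (adjusted p = 0.635). The Mmp12 value in VEGF Trap was -0.02 without Fc 1 and -0.05 without VEGF Trap 3, against -0.47 without Fc 3 and -0.45 without VEGF Trap 2. An exon of Mmp1b overlaps an Mmp12 exon on the other strand, and Mmp1b had 0 to 3 counts per library.

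Mmp14 is the membrane type 1 metalloproteinase, a collagenase anchored at the cell surface and the activator of Mmp2 (chr14:54431612-54445364, plus strand). It had 599.6, 474 and 478 CPM in ABTAA libraries, 639, 512 and 474 CPM in VEGF Trap libraries, and 602, 502 and 515 CPM in Fc libraries. Replicate 1 was the highest library within every group, and the 3 groups lay over each other. Means were 517 ± 71.5 CPM in ABTAA and 542 ± 86.3 CPM in VEGF Trap, against 539.6 ± 54.8 CPM in Fc (SD, n = 3 each). The log2 fold changes of -0.06 ± 0.13 in ABTAA (adjusted p = 0.868, edgeR) and 0.01 ± 0.13 in VEGF Trap (adjusted p = 0.992) had 95% intervals of -0.34 to 0.22 for ABTAA and -0.27 to 0.29 for VEGF Trap.

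Mmp19 is a secreted metalloproteinase that digests basement membrane components (chr10:128790910-128800824, plus strand). It had 62.4, 68.4 and 63.5 CPM in ABTAA libraries, 64.8, 63.7 and 62.7 CPM in VEGF Trap libraries, and 88.9, 57.2 and 70.7 CPM in Fc libraries. The 6 treated libraries lay inside the range of the Fc libraries, of which Fc 1 was the highest. The log2 fold change was -0.16 ± 0.15 in ABTAA (adjusted p = 0.641, edgeR) and -0.18 ± 0.15 in VEGF Trap (adjusted p = 0.599). Without Fc 1 it was 0.02 in ABTAA and -0.01 in VEGF Trap, where leaving out each library in turn gave -0.32 to -0.01. Exons of Tmem198b on the opposite strand overlap Mmp19, with 189 to 433 counts per library against 406 to 952 for Mmp19. Because the strand setting of the counting is not given in the sources used here, reads of these 2 genes cannot be told apart. All 9 Mmp19 counts were even numbers, and after division by 2 its log2 fold changes were -0.16 in ABTAA and -0.18 in VEGF Trap. Dividing all counts of a gene by the same number hardly alters its fold change by construction. The SE went from 0.146 to 0.154 in ABTAA and from 0.145 to 0.153 in VEGF Trap. Over the alternatives and left-out libraries, each of the 6 metalloproteinases changed sign at least once in ABTAA against Fc, as Mmp3 and Mmp14 did in VEGF Trap against Fc.

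Timp2 inhibits most metalloproteinases and also carries the Mmp2 proenzyme to Mmp14 for activation. The gene lies at chr11:118301069-118355740 on the minus strand. It had 2316, 2278 and 1676 CPM in ABTAA libraries, 2086, 2624 and 2207 CPM in VEGF Trap libraries, and 1564, 1502.5 and 1593 CPM in Fc libraries. Every treated library was above the highest Fc library, with ABTAA 3 the nearest to it. Timp2 averaged 2089.8 ± 359 CPM in ABTAA and 2306 ± 282 CPM in VEGF Trap, against 1553 ± 46.3 CPM in Fc (SD, n = 3 each). The gene rose in VEGF Trap libraries by 0.57 ± 0.13 on the log2 scale (adjusted p = 0.046, edgeR; 95% interval 0.30 to 0.84), and was higher than Fc in 3 of 3 libraries. In ABTAA libraries the log2 fold change was 0.43 ± 0.13 (adjusted p = 0.0937, edgeR; 95% interval 0.16 to 0.69), which did not pass.

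The VEGF Trap call for Timp2 stood near the threshold. It was lost without any 1 of the Fc libraries, without ABTAA 2, and without VEGF Trap 2 or 3. There the log2 fold change was 0.47 to 0.60 and the adjusted p 0.0552 to 0.182 by edgeR. Without Fc 1, 2 and 3 the value was 0.574, 0.546 and 0.583, near that of the full fit. Calls over all genes fell in these fits too, from 144 to 18, 7 and 32 without Fc 1, 2 and 3. They were 104 without ABTAA 2, and 60 and 25 without VEGF Trap 2 and 3, so the loss was not particular to Timp2. The largest move came from VEGF Trap 2, the library with the highest Timp2, without which the value was 0.47 (adjusted p = 0.117). The call was also lost with library totals as the only scaling (0.49, adjusted p = 0.0663) and with a correction for GC content (0.53, adjusted p = 0.0646). For ABTAA, the value without ABTAA 3 was 0.56 (adjusted p = 0.0346, edgeR), and DESeq2 with all libraries gave 0.43 (adjusted p = 0.0196).

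Timp3 is the inhibitor that binds to the matrix and is a known component of the Bruch membrane; it also blocks the binding of VEGF to its receptor Kdr (chr10:86300372-86349506, plus strand). It had 1241, 1402.5 and 1281 CPM in ABTAA libraries, 1459, 1364 and 1234 CPM in VEGF Trap libraries, and 1021, 1037 and 1168 CPM in Fc libraries. All 6 treated libraries lay above the Fc libraries, with Fc 3 the highest of its group. Means were 1308 ± 84.3 CPM in ABTAA and 1352 ± 113 CPM in VEGF Trap, against 1075.5 ± 80.8 CPM in Fc (SD, n = 3 each). The log2 fold change was 0.28 ± 0.10 in ABTAA (adjusted p = 0.169, edgeR; 95% interval 0.07 to 0.50) and 0.33 ± 0.10 in VEGF Trap (adjusted p = 0.12; 95% interval 0.11 to 0.55). Neither passed by edgeR, whereas DESeq2 called the VEGF Trap value (0.33, adjusted p = 0.0198). Exons of Syn3 on the opposite strand overlap Timp3, and Syn3 had 13 to 65 counts per library.

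Timp1 inhibits many secreted metalloproteinases, forms a complex with the Mmp9 proenzyme and is induced by cytokines and injury. It lies at chrX:20870166-20874735 on the plus strand, within the gene Syn1 but sharing no exon with it. The values were 303, 326 and 313 CPM in ABTAA libraries, 329, 292 and 325 CPM in VEGF Trap libraries, and 407, 357 and 361 CPM in Fc libraries. Each of the 6 treated libraries was below the lowest Fc library, and Fc 1 was the highest of all. The log2 fold change was -0.26 ± 0.10 in ABTAA (adjusted p = 0.21, edgeR) and -0.25 ± 0.10 in VEGF Trap (adjusted p = 0.242), from means of 314 ± 11.6 CPM in ABTAA and 315 ± 20.2 CPM in VEGF Trap, against 375 ± 27.9 CPM in Fc (SD, n = 3 each). Neither value passed. The direction of Timp1 was thus opposite to that of Timp2 and Timp3 against the same Fc libraries.

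Adamts1 is a secreted protease with thrombospondin motifs that cuts the proteoglycans versican and aggrecan and can bind VEGF. The gene, at chr16:85793827-85803113 on the minus strand, had 38.5, 48.3 and 44.3 CPM in ABTAA libraries, 47.9, 39.3 and 44.9 CPM in VEGF Trap libraries, and 53.4, 60.5 and 51.9 CPM in Fc libraries. The treated libraries all lay below the Fc libraries. Its log2 fold change was -0.34 ± 0.14 in ABTAA (adjusted p = 0.217, edgeR; 95% interval -0.63 to -0.05) and -0.33 ± 0.14 in VEGF Trap (adjusted p = 0.249; 95% interval -0.62 to -0.04), and neither passed.

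**Figure D2:**
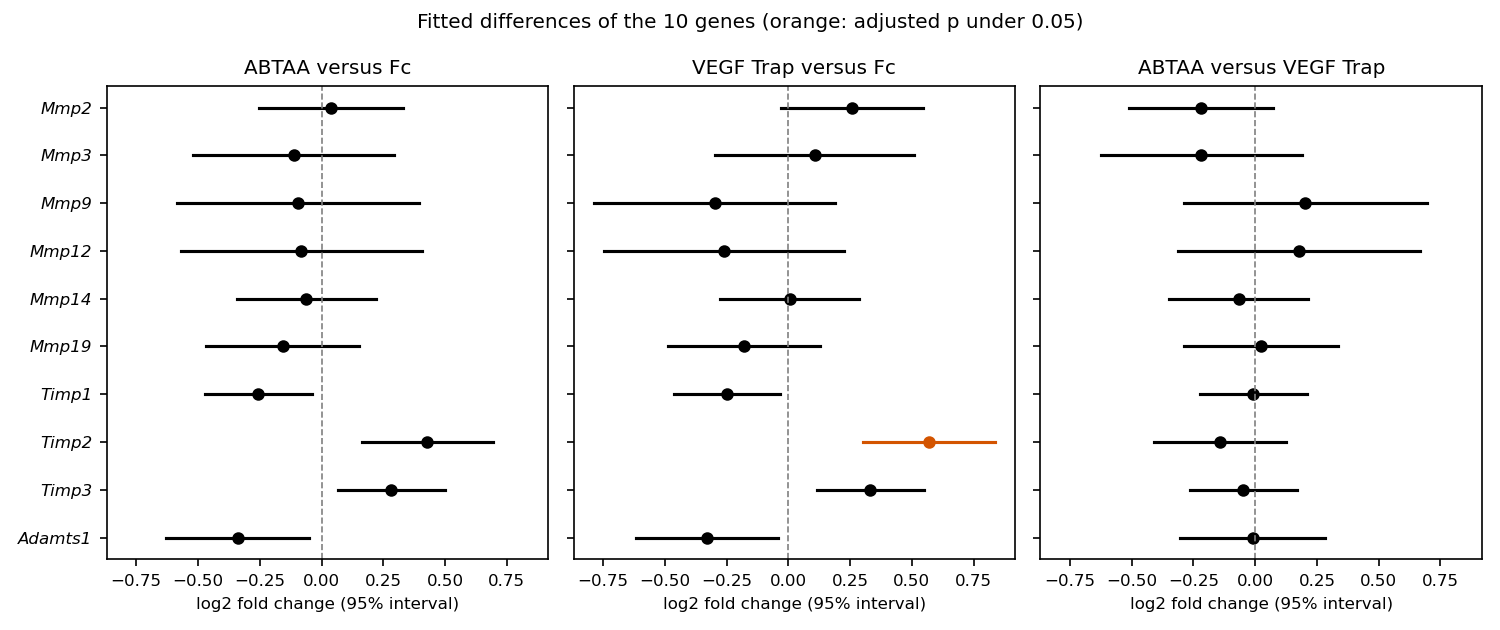
Log2 fold change (points) of each of the 10 members with its 95% interval (bars) from edgeR, in 1 panel each for ABTAA versus Fc, VEGF Trap versus Fc and ABTAA versus VEGF Trap; the dashed line marks 0, and orange marks an adjusted p under 0.05. Timp2 in VEGF Trap versus Fc, with an interval of 0.30 to 0.84, is the 1 orange value, and every interval of ABTAA versus VEGF Trap spans 0.

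In each comparison with Fc, 4 of 10 members had groups that did not overlap, Timp2 and Timp3 on the higher side and Timp1 and Adamts1 on the lower side. Groups did not overlap for 23.0% of all tested genes in ABTAA against Fc, 11.7% on the higher and 11.3% on the lower side. For VEGF Trap against Fc the share was 20.9%, with 10.4% on the higher and 10.5% on the lower side. The members' counts of 2 higher and 2 lower of 10 stand above these shares by about 1 gene on each side.

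ABTAA was also set directly against VEGF Trap, which asks whether the reagents differ from each other. No member differed between them past the threshold: 0 of 10 passed, as did 0% of all tested genes, and 0 members had an unadjusted p under 0.05 by edgeR, against 5.06% of all genes. DESeq2 also called 0 members. Groups overlapped for all 10 members, whereas 9.88% of all tested genes had groups that did not, 5.14% higher and 4.74% lower in ABTAA. The widest interval was that of Mmp9, 0.20 ± 0.23 on the log2 scale (95% interval -0.29 to 0.69), from 134 ± 21.2 CPM in ABTAA and 117 ± 50.0 CPM in VEGF Trap. For Mmp2 the value was -0.22 ± 0.14 (-0.51 to 0.07) and for Timp2 -0.14 ± 0.13, both lower in ABTAA. Timp1 stood at -0.01 (-0.22 to 0.21), Timp3 at -0.05 (-0.26 to 0.17) and Adamts1 at -0.01 (-0.30 to 0.28). Each of these last 3 intervals ended short of the difference that the gene had from Fc, although a p that misses the threshold does not show that the reagents act alike.

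How alike the members varied over the 9 libraries is given here as Pearson correlations of log2 CPM, which describe these libraries and include the differences between groups. Timp1 and Adamts1 were the closest pair of the 45, with 0.83 over all libraries and 0.45 after the group means were taken out. Timp2 and Timp3 had 0.75, but only 0.10 within groups, so that most of their likeness lay between the groups. Mmp2 and Timp2, the enzyme and the inhibitor that carries it to Mmp14, had 0.77 over all libraries and 0.83 within groups. On the other side, Timp2 had -0.80 with Adamts1 and -0.78 with Timp1, and Timp1 had -0.74 with Timp3. Over all 45 pairs the median was 0.065, and 20 were negative.

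**Figure D3:**
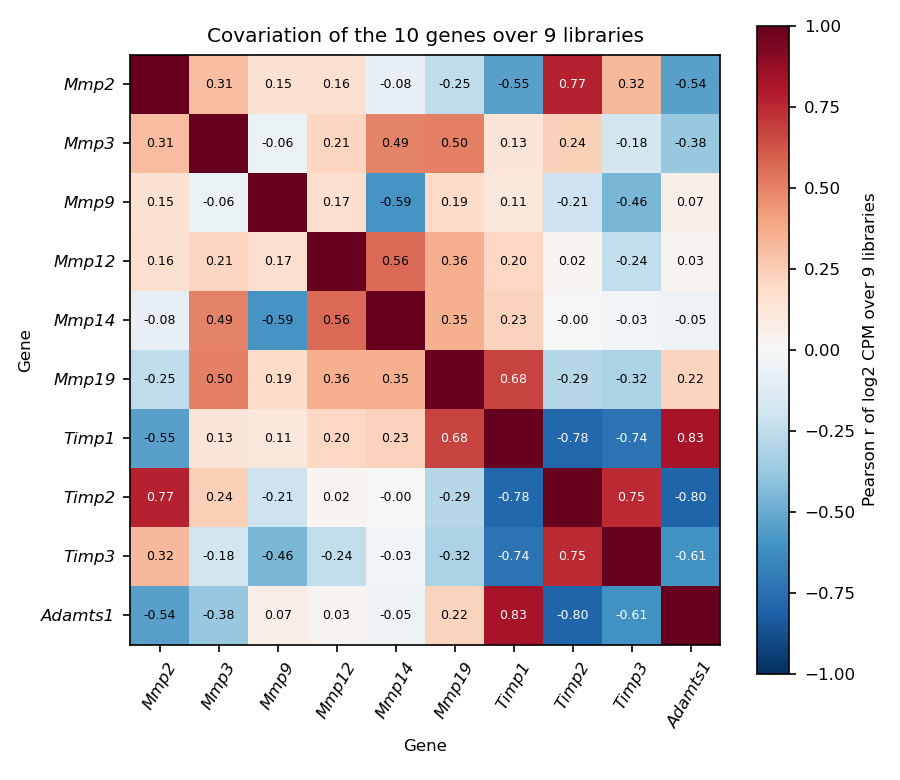
Pearson correlation of log2 CPM between the 10 members over the 9 libraries, as a colour scale from -1 to 1 with the value in each cell. Timp1 with Adamts1 (0.83), Mmp2 with Timp2 (0.77) and Timp2 with Timp3 (0.75) are the highest cells, and Timp2 with Adamts1 (-0.80) is the lowest.

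For each member, the genes most like it among all tested genes were taken by the same correlation over 9 libraries; being the top of a long list, such values are high by selection. Nearest to Mmp3 were C5ar1 (0.97), the receptor for complement C5a on neutrophils and macrophages, Slc26a2 and the leukocyte integrin subunit Itgal (0.93). Mmp14 was nearest to Fbxo32, Bin1 and the monocyte chemokine receptor Ccr2 (0.95 each). Mmp19 was nearest to Tmem198b (0.95), the gene whose exons overlap it, then to Sla and Atxn1l. Mmp2 stood with Mrps23 (0.94), Gm2a and Cxcl14, Mmp9 with Gpx1 (0.95) and Psmg2, and Mmp12 with Cpox (0.96), Ift22 and Kcnk2. Among the inhibitors, Timp1 was nearest to Ssh2 (0.97), Rad23b and Bst1, Timp2 to Stom (0.97), Dzip1 and Rabac1, and Timp3 to Klhl36 (0.99), Klc2 and Ptger3. Adamts1 stood with Cox17 (0.95), Gpr85 and Spidr.

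Markers of cell types that the captured tissue can hold moved with several members. Sums here are over the tested genes of a list. The summed CPM of 8 skeletal muscle genes was 197 to 405 in ABTAA and 186 to 326 in VEGF Trap, against 90.1 to 129 in Fc, with none of the 8 at 0 in all libraries. Of these 8 genes, 8 rose in ABTAA and 3 rose in VEGF Trap. This sum separated the treated from the Fc libraries as Timp2 and Timp3 did, and its correlation was 0.85 with Timp3 (0.59 within groups) and 0.70 with Timp2 (0.16 within groups). The correlation was -0.72 with Timp1 (0.04 within groups) and -0.675 with Adamts1 (0.03 within groups). The 6 melanocyte genes summed to 2866 to 2966 CPM in ABTAA and 2348 to 4125 CPM in VEGF Trap, against 2214 to 2527 CPM in Fc, and 1 of them rose in ABTAA and 2 rose in VEGF Trap. Their sum had a correlation of 0.79 with Timp3 (0.66 within groups), and its part in the Timp3 values was not tested. Rn45s, the precursor of ribosomal RNA, took 11.7% to 13.1% of all reads counted in ABTAA and 12.9% to 15.8% in VEGF Trap, against 10.05% to 11.8% in Fc, so that all VEGF Trap libraries lay above Fc as they did for Timp2. Its share had a correlation of 0.68 with Timp3 (0.21 within groups) and 0.46 with Timp2 (-0.60 within groups), and its part in these values was not tested. With the muscle sum as a covariate, Timp2 in VEGF Trap was 0.49 (adjusted p = 0.459, edgeR), and Timp3 was 0.07 in ABTAA and 0.17 in VEGF Trap. Timp1 was -0.27 in ABTAA and -0.26 in VEGF Trap, and Adamts1 -0.35 and -0.34, near their values without the covariate. Mmp9 was -0.76 ± 0.41 in ABTAA (adjusted p = 0.765, edgeR) and -0.83 ± 0.36 in VEGF Trap (adjusted p = 0.467). With this covariate 0 genes of the whole table passed in either comparison. Because the treated groups do not overlap with Fc in the muscle sum, muscle content and treatment cannot be told apart by that fit.

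The 3 tested of 6 neutrophil genes summed to 46.0 to 63.8 CPM in ABTAA and 52.0 to 109 CPM in VEGF Trap, against 88.1 to 512 CPM in Fc, with the highest value in Fc 1. Of the 6 genes 5 were in the tables, and none of these was at 0 in all libraries. The correlation of that sum was 0.895 with Timp1 (0.815 within groups), 0.81 with Mmp19 (0.86 within groups) and 0.55 with Mmp3 (0.805 within groups). Fc 1 was also the highest Fc library for Mmp3, Mmp9, Mmp12, Mmp14, Mmp19 and Timp1. Without Fc 1, the Timp1 log2 fold change was -0.20 in ABTAA (adjusted p = 0.47, edgeR) and -0.19 in VEGF Trap (adjusted p = 0.526). The part of neutrophil RNA in the Timp1 difference, with or without Fc 1, was not tested.

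Mmp14 moved with more than 1 marker list. The 7 fibroblast markers summed to 5514 to 7546 CPM in ABTAA and 5910 to 7761 CPM in VEGF Trap, against 6312 to 7592 CPM in Fc. The 9 macrophage and microglia markers summed to 1299 to 1544 CPM in ABTAA and 1595 to 1878 CPM in VEGF Trap, against 1655 to 1814 CPM in Fc, and 2 of them fell in ABTAA by edgeR. Mmp14 had a correlation of 0.83 with the fibroblast sum (0.83 within groups) and 0.69 with the macrophage sum (0.88 within groups), while it was -0.81 with the 7 pericyte and smooth muscle markers and -0.79 with the 7 pigment epithelium markers. Replicate 1 had the highest fibroblast and macrophage sums in each group, as it had the highest Mmp14. For Mmp9 and Mmp12, which macrophages make, the correlation with the macrophage sum was -0.42 (-0.64 within groups) and 0.14 (0.33 within groups). Mmp9 had a correlation of -0.90 with the 3 tested of 5 lens genes, which summed to 52.6 CPM in VEGF Trap 1, the library with the lowest Mmp9, and to 11.4 to 24.3 CPM in the other 8 libraries. The 8 endothelial genes summed to 2247 to 2344 CPM in ABTAA and 1673 to 1865 CPM in VEGF Trap, against 1484 to 1874 CPM in Fc. Of these genes 4 rose in ABTAA and 0 in VEGF Trap by edgeR. The endothelial and macrophage sums thus separated ABTAA but not VEGF Trap from Fc, as did the neutrophil and melanocyte sums, the 5 Schwann cell genes (459 to 510.1 CPM in ABTAA and 436 to 489 CPM in VEGF Trap, against 371 to 443 CPM in Fc) and, narrowly, the pericyte sum (938.3 to 1260.4 CPM in ABTAA and 656 to 978 CPM in VEGF Trap, against 707.5 to 935.4 CPM in Fc). None of the 10 members showed that split.

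**Figure D4:**
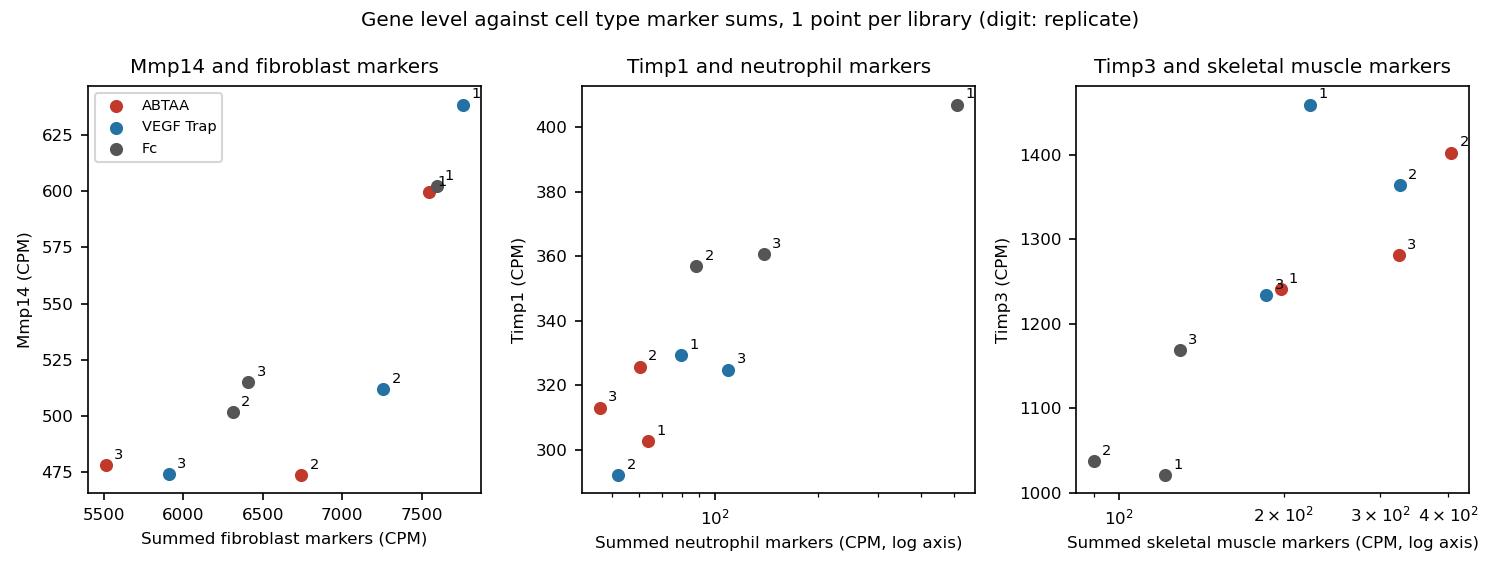
CPM of Mmp14, Timp1 and Timp3 (vertical axes, not starting at 0) against the summed CPM of fibroblast, neutrophil and skeletal muscle markers in the same library (horizontal axes, logarithmic for neutrophil and skeletal muscle markers), 1 point per library, numbered by replicate and coloured by group (ABTAA, VEGF Trap, Fc). The 3 libraries numbered 1 have the highest Mmp14 and fibroblast sums, Fc 1 stands alone at 512 CPM of neutrophil markers, and the Fc libraries have the lowest skeletal muscle sums and the lowest Timp3.

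The genes around the members in the proteolytic network were taken from lists by role. Of 8 tested of 17 other metalloproteinases, 0 passed in either comparison with Fc. The neutrophil collagenase Mmp8 had 31.1 ± 3.54 CPM in ABTAA and 31.3 ± 1.74 CPM in VEGF Trap, against 43.4 ± 13.3 CPM in Fc (SD, n = 3 each), with adjusted p = 0.199 in ABTAA and 0.225 in VEGF Trap by edgeR. Of 8 other inhibitors, 19 other ADAMTS and ADAMTS-like genes, 10 ADAM sheddases, 8 cathepsins and cystatins, and 12 genes for activation, docking and clearance of metalloproteinases, 0 passed as well by edgeR. At an unadjusted p under 0.05, the counts in ABTAA were 2 other metalloproteinases, 2 inhibitors, 2 ADAMTS genes, 4 sheddases, 0 cathepsins and 2 activation genes. Those in VEGF Trap were 2, 0, 3, 3, 1 and 3 in the same order. Among all tested genes, 16.9% in ABTAA and 15.4% in VEGF Trap had such a p by edgeR. DESeq2 called 2 sheddases in ABTAA, Adam15 and Adam17, and 1 in VEGF Trap, Adam17, and 0 genes of the other lists. The sheddase Adam17, which releases TNF and growth factors from the cell surface and is inhibited by Timp3, had 670.1 ± 76.9 CPM in ABTAA and 658 ± 68.8 CPM in VEGF Trap, against 877 ± 94.9 CPM in Fc, with log2 fold changes of -0.39 ± 0.12 (adjusted p = 0.109, edgeR) and -0.41 ± 0.12 (adjusted p = 0.0973). All treated libraries of Adam17 lay below Fc. Adam15 had a log2 fold change of 0.36 ± 0.09 in ABTAA (adjusted p = 0.064, edgeR) and 0.23 ± 0.09 in VEGF Trap (adjusted p = 0.242), with all treated libraries above Fc. Groups did not overlap for 23.0% of all tested genes in ABTAA against Fc and 20.9% in VEGF Trap against Fc.

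The plasminogen system, whose protease plasmin activates several metalloproteinase proenzymes, held the urokinase gene Plau, which passed in both comparisons. Of its 8 tested genes 2 rose in ABTAA and 1 rose in VEGF Trap, and 0 fell. Plau, whose product makes plasmin, had 24.4, 20.03 and 29.1 CPM in ABTAA libraries and 22.9, 23.6 and 28.4 CPM in VEGF Trap libraries, against 15.2, 13.2 and 12.3 CPM in Fc libraries. All treated libraries lay above Fc, and Plau rose by 0.85 ± 0.17 on the log2 scale in ABTAA (adjusted p = 0.0359, edgeR) and by 0.87 ± 0.17 in VEGF Trap (adjusted p = 0.0323). Serpinf1, the antiangiogenic serpin PEDF of the pigment epithelium, rose in ABTAA to 297 ± 11.4 CPM, against 208 ± 9.30 CPM in Fc (0.52 ± 0.11, adjusted p = 0.037), and its VEGF Trap value of 0.45 ± 0.11 did not pass (adjusted p = 0.0577).

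Of 15 tested inducers and AP-1 factors, 1 rose in each comparison, the AP-1 subunit Jund, with 279 ± 33.3 CPM in ABTAA and 298 ± 26.4 CPM in VEGF Trap, against 198 ± 9.12 CPM in Fc (0.50 ± 0.11, adjusted p = 0.0473, and 0.59 ± 0.11, adjusted p = 0.0322, edgeR). With a correction for GC content these values were 0.16 and 0.35 and did not pass. Of 21 matrix proteins that metalloproteinases cut, 1 rose in ABTAA and 1 fell in VEGF Trap, where DESeq2 called 4 in ABTAA and 2 in VEGF Trap. Hspg2, the basement membrane proteoglycan perlecan, had 368 ± 51.3 CPM in ABTAA, against 209 ± 56.0 CPM in Fc (0.82 ± 0.16, adjusted p = 0.0303, edgeR), and its VEGF Trap value of 0.60 ± 0.16 did not pass (adjusted p = 0.0689). The laminin chain Lamb1 had 58.1 ± 2.82 CPM in VEGF Trap, against 88.6 ± 1.35 CPM in Fc (-0.61 ± 0.11, adjusted p = 0.0322, edgeR), and -0.37 ± 0.11 in ABTAA (adjusted p = 0.114). The calls of Plau, Serpinf1 and Lamb1 were each lost without any 1 library of the compared groups, except that Plau in VEGF Trap held without VEGF Trap 1. Jund lost its call without any 1 Fc library and without ABTAA 1 or 2, or VEGF Trap 2 or 3, in ABTAA against Fc, and without any 1 Fc library or VEGF Trap 1 or 3 in VEGF Trap against Fc. Hspg2 lost its call without Fc 2, Fc 3, ABTAA 1 or ABTAA 2, at adjusted p-values up to 0.139 by edgeR. Leaving out 1 library of the compared groups also cut the calls over all genes. They went from 197 to between 0 and 145 in ABTAA against Fc, and from 144 to between 7 and 62 in VEGF Trap against Fc. The correction for GC content also ended the calls of Hspg2 and Serpinf1, library totals as the only scaling ended that of Serpinf1 and that of Jund in ABTAA, and with the muscle covariate none of these genes passed.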

How the data were processed

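RNA from laser-captured pigment epithelium and choroid was made into QuantSeq 3′ libraries, per the labels' protocols. The authors deposited whole-number counts per gene symbol, 1 table per library. The submitters' processing notes name Bowtie2, edgeR and build mm10. Their versions, annotation, strand setting and handling of multiply aligned reads were not given in the sources used here. Among the 14167 genes counted in all 9 libraries, 1616 had even numbers throughout, so some reads may have been entered more than once. Groups came from the sample titles. Libraries of 1 group differed by 8.5 to 20.4 in chi-square per degree of freedom, above sampling noise.

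After filterByExpr and TMM scaling, genes were tested in R 4.3.3 with edgeR 4.0.16, all 9 libraries in 1 quasi-likelihood model with 6 residual degrees of freedom, and adjusted by Benjamini-Hochberg over 14054 genes. The biological coefficient of variation was 17.9%. Intervals are at 95%, and the steps were tested on simulated data. Alternatives were DESeq2 1.42.0, limma-voom (limma 3.58.1), other scalings and filters, a GC content offset, a skeletal muscle covariate, the replicate number as a block, division of counts by their common divisor, and omission of each library.

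Members and lists were chosen with earlier results of these data known. Named genes were all members, up to 4 called genes per list and comparison, up to 2 with the smallest p in lists without a call, the 3 genes most like each member, and markers. Some genes that this rule names are left out of the text. Positions came from GENCODE M21 (GRCm38), and promoters from RefSeq (GRCm38.p6), without Mmp2, Mmp9 and Mmp19. Windows of Timp2 and Timp3 reach into exons of the gene and were not printed.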

Additional observations from a re-analysis of the deposited data

How the results depend on the processing

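With 10 members and 3 comparisons, the values below are those that turned or crossed the threshold. In ABTAA against Fc 0 members passed, but 1 (Timp2) passed with DESeq2, with no filter or without ABTAA 3, a range of 0 to 1 over left-out libraries. In VEGF Trap against Fc 1 passed, and 2 (Timp2 and Timp3) passed with DESeq2. The count was 0 with library totals alone, the GC content offset or the muscle covariate, and 0 to 1 over left-out libraries. Over the same left-out libraries, calls among all genes ranged from 0 to 373 in ABTAA against Fc. In VEGF Trap against Fc they ranged from 7 to 144.

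Small values turned in direction. In ABTAA against Fc, Mmp2 was -0.007 with library totals, -0.049 with the GC offset and -0.065 with the muscle covariate, Mmp3 was 0.171 and Mmp14 0.146 with that covariate, and Mmp12 was 0.029 with the GC offset. In VEGF Trap against Fc, Mmp14 was -0.076 with library totals, -0.041 with the GC offset and -0.001 with the block. In ABTAA against VEGF Trap, library totals gave Timp1 0.029 and Adamts1 0.028, and the muscle covariate gave Mmp19 -0.036. Leaving out each library in turn gave, in ABTAA against Fc, -0.01 to 0.102 for Mmp2, -0.31 to 0.152 for Mmp3, -0.199 to 0.022 for Mmp9, -0.294 to 0.156 for Mmp12, -0.183 to 0.024 for Mmp14 and -0.301 to 0.017 for Mmp19. In VEGF Trap against Fc it gave -0.064 to 0.371 for Mmp3 and -0.122 to 0.095 for Mmp14. In ABTAA against VEGF Trap it gave -0.089 to 0.551 for Mmp9, -0.024 to 0.369 for Mmp12, -0.189 to 0.065 for Mmp14, -0.02 to 0.049 for Mmp19, -0.06 to 0.021 for Timp1, -0.109 to 0.006 for Timp3 and -0.093 to 0.073 for Adamts1. The causes were not tested. Timp2 and Timp3 against Fc stayed positive, and Timp1 and Adamts1 negative, in all 20 settings of each.

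Libraries with the same replicate number had correlated deviations of only 0.013 to 0.112, and 8 of 9 libraries correlated best with their own number, a hint from the data and not the design. With the replicate number as a block, Timp2 was 0.563 in VEGF Trap (adjusted p = 0.032, edgeR) and 0.416 in ABTAA (adjusted p = 0.0705), and 0, 1 and 0 members passed in the 3 comparisons. Over all genes the block gave 334 and 300 calls against Fc, where the fit without it gave 197 and 144. DESeq2 gave 729 and 664 calls, no filter 684 and 616, the GC offset 79 and 98, and the muscle covariate 0 in both. With library totals, 66 genes were higher and 106 lower in ABTAA, and 39 higher and 182 lower in VEGF Trap, where TMM gave 119 and 78, and 72 and 72. In ABTAA against VEGF Trap, 30 genes passed with no filter and 1 with the block.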
